A study of Mus musculus with 8 samples.

Results

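The genes described here are 7 Kruppel-like factors (KLF), Klf2, Klf3, Klf4, Klf6, Klf7, Klf10 and Klf13, and 2 receptors for the lipid sphingosine 1-phosphate (S1P), S1pr1 and S1pr4. They were chosen by name, with earlier results of these data known, and matched to mouse Ensembl identifiers. Their counts and medians, set beside those of all genes below, are therefore descriptions only. They are 9 of the 54837 identifiers in the count table. All 9 passed the filter on low counts, as did 18851 genes in all. Ccr7, which encodes a lymph node homing receptor, is given beside them.

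The 8 RNA sequencing libraries came from CD4 T cells flow sorted from mouse spleen after tamoxifen on 5 days in a row. GFPhi (n = 3) were TIM-3+ FLAG+ GFP+ FoxP3+ cells and GFPLow (n = 3) were TIM-3+ FLAG+ GFP- FoxP3- cells, both from mice that carry FSF-TIM-3 together with Foxp3-eGFP-Cre-ERT2. WT (n = 2) were TIM-3- FLAG- GFP+ FoxP3+ cells from mice with Foxp3-eGFP-Cre-ERT2 alone, so all 3 groups carry that allele, which makes eGFP and a Cre recombinase that tamoxifen activates where Foxp3 is expressed. The titles call all 8 libraries Treg, although the sort that defines GFPLow took FoxP3- cells. GFPhi and GFPLow differ from WT in both the transgene and the TIM-3 and FLAG gate, and an effect of the one and selection by the other cannot be told apart. GFPLow differs from WT in the GFP and FoxP3 gate as well, so GFPLow against WT also sets FoxP3- against FoxP3+ cells. That difference cannot be told apart from the others either. Neither age nor sex of the mice was given in the sources used here. Titles number the GFPhi and GFPLow libraries alike, with an M before the number whose meaning is not given. Tests treat these libraries as unpaired unless a block is named. Nothing in the sources says that each library is a separate animal, so p-values measure the spread between these libraries, which may be technical in part.

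KLF proteins are zinc finger transcription factors that bind GC-rich and CACCC sequences. In mouse T cells Klf2 drives transcription of S1pr1 and keeps resting cells in circulation. S1pr1 is a Gi-coupled receptor that senses the high S1P of blood and lymph and lets lymphocytes leave lymphoid organs, while CCR7 lets them enter lymph nodes. Activation through the antigen receptor lowers Klf2 and with it this recirculation programme.

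Total counts ran from 44446215 to 55388756 per library. Abundances are counts scaled to library size (CPM) with TMM factors. Foxp3, whose protein was in the gate, was at 60.2 to 81 CPM in GFPhi, 1.97 to 4.82 CPM in GFPLow and 41.7 to 63.2 CPM in WT, and Havcr2, the gene of TIM-3, was at 1077 to 1791, 127 to 538 and 0.172 to 0.876 CPM in the same order of groups. Both genes were high or low in each library as its gate says. GFPhi and GFPLow share the TIM-3+ FLAG+ gate, yet every GFPhi library held more Havcr2 than any GFPLow library (log2 fold change 2.25 ± 0.61, edgeR adjusted p = 0.134). WT library 1 stood apart, with 6.54% mitochondrial counts against 2.35% to 2.78% elsewhere and counts in 18599 genes against 21248 to 22185. Its TMM factor was 0.694, against 1.041 to 1.07 in the other 7. WT library 2, GFPhi library 3 and GFPLow library 3 held Xist at 184 to 242 CPM, against at most 0.263 CPM elsewhere, and WT library 2 also held 6.16 CPM of the Y-linked gene Ddx3y. Ddx3y was at 0 CPM in GFPhi and GFPLow libraries 3 and at 170.3 to 229 CPM in the libraries with low Xist. By these genes each group mixed material of differing sex, so the spread within groups is not technical alone. Because WT library 1 stood apart, fold changes against WT of the 8 genes other than Klf4 are given with both WT libraries and without WT library 1. A fit that leaves out a WT library has 1 left, so its SE and adjusted p hold no spread between WT libraries.

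The plainest pattern among the 9 genes was a high level in GFPLow of S1pr1, S1pr4, Klf3, Klf7 and Klf13, with no overlap with either other group, though by a narrow gap for Klf3. GFPhi lay near WT library 2 for these 5 genes. Over all genes tested, 21.1% were higher in GFPLow than in WT without overlap, and 14.0% were lower in GFPhi than in GFPLow without overlap. The share of all genes that met both was not counted. Klf2 was also higher in every GFPLow library than in any GFPhi library, while Klf6 and Klf10 overlapped between those groups. The 3 comparisons share libraries, so the results below are not independent of each other. The 2 WT libraries differed from each other more than any other pair within a group, and the calls against WT below depended on which of them was in the fit. In GFPhi against GFPLow, edgeR calls of the 9 genes were the same with either WT library left out, and fewer with both in the fit.

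**Figure D1:**
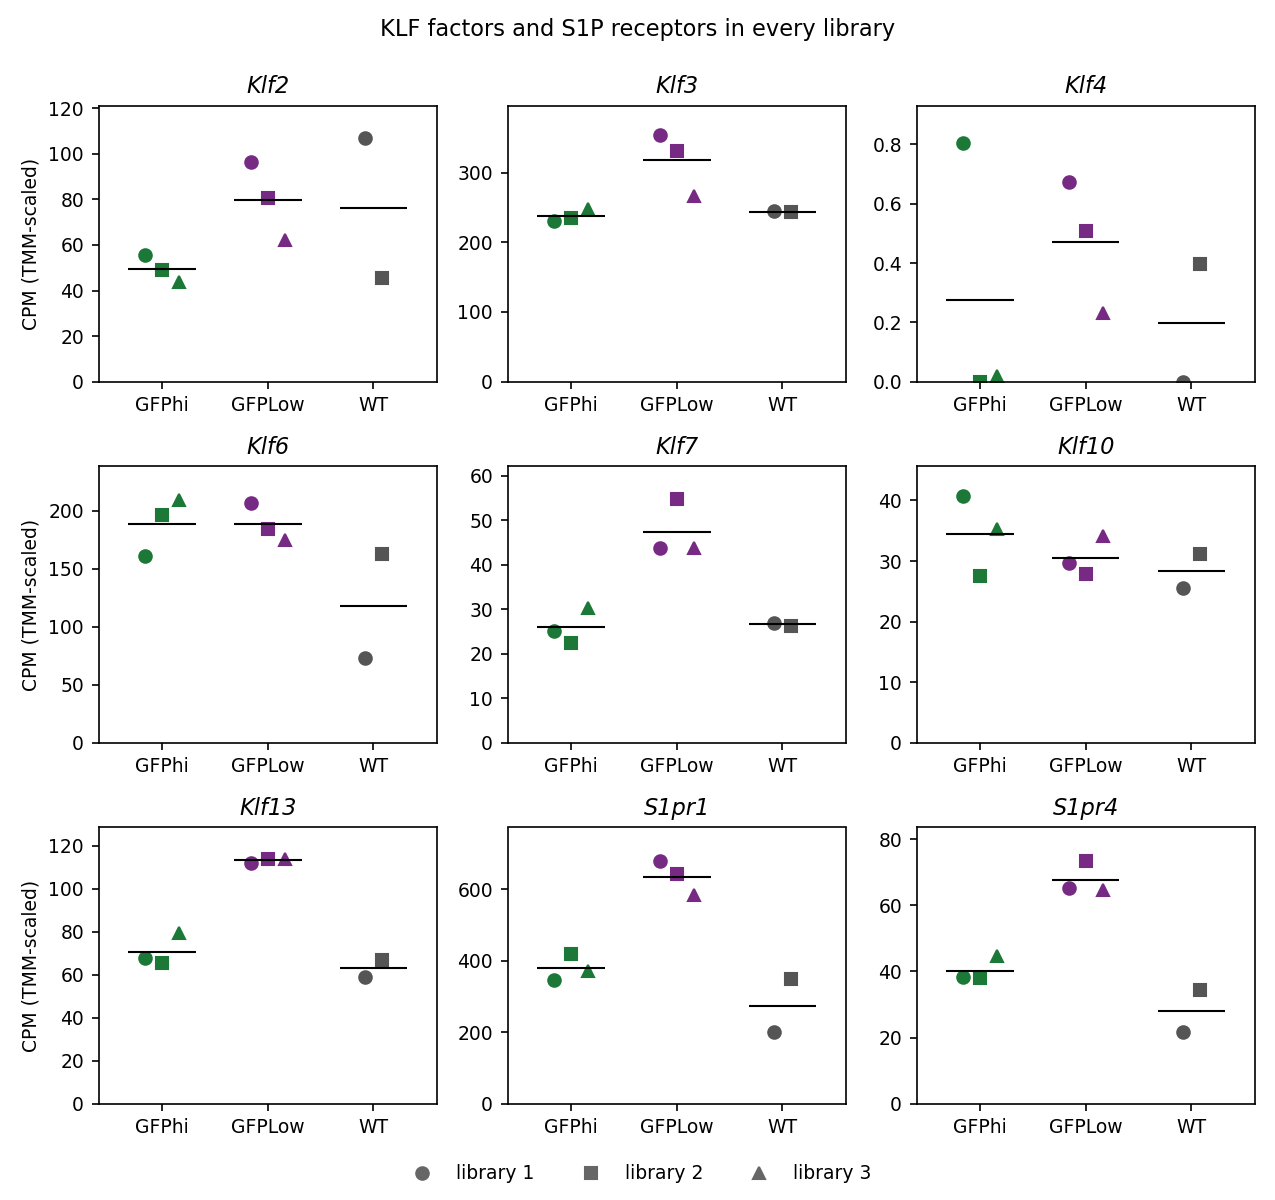
Abundance of the 9 genes in every library, in TMM-scaled CPM on linear axes that start at 0. Points are libraries, with the symbol giving the library number, and the horizontal line is the mean of GFPhi (n = 3), GFPLow (n = 3) or WT (n = 2). S1pr1, S1pr4, Klf3, Klf7 and Klf13 lie highest in all 3 GFPLow libraries, and the 2 WT libraries lie far apart for Klf2, Klf6 and S1pr1.

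S1pr1 (ENSMUSG00000045092, GRCm38 chromosome 3, 115710433 to 115715072) is the egress receptor of lymphocytes. It was at 346, 419.9 and 370.3 CPM in GFPhi libraries 1 to 3 and at 679, 642 and 584 CPM in GFPLow libraries 1 to 3, while WT libraries 1 and 2 held 199.6 and 348 CPM. Every GFPLow library was above every other library, and WT library 1 was the lowest of the 8. In GFPLow against WT the log2 fold change was 1.21 ± 0.27 (SE), which missed the threshold of 0.05 with an adjusted p of 0.0534 over all genes tested. Without WT library 1 it was 0.87, from a fit with 1 WT library. GFPhi differed from WT by 0.47 ± 0.26 (adjusted p = 0.416) and by 0.12 ± 0.12 without WT library 1 (adjusted p = 0.966). In bulk samples, fewer cells that express a gene and less of its RNA per cell cannot be told apart.

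S1pr4 (ENSMUSG00000044199, chromosome 10, 81497747 to 81500132) encodes an S1P receptor found mainly on blood and lymphoid cells. Its abundance was 38.2, 38.1 and 44.6 CPM in GFPhi, 65.4, 73.4 and 64.6 CPM in GFPLow, and 21.8 and 34.4 CPM in WT libraries 1 and 2. The 3 groups did not overlap for this gene, with GFPLow highest and WT lowest. S1pr4 rose in GFPLow against WT by 1.27 ± 0.24 (adjusted p = 0.03), a 2.41-fold difference. Without WT library 1 the log2 fold change was 0.98. The call held in 9 of 19 alternatives, and limma voom gave the highest adjusted p of these, 0.476. GFPhi against WT gave 0.52 ± 0.23 (adjusted p = 0.369), and 0.22 ± 0.14 without WT library 1 (adjusted p = 0.955).

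Both receptors kept nearly the same proportion to each other. Per kilobase (kb) of annotated exon, S1pr4 was at 0.116 to 0.154 of S1pr1 in the GFPhi libraries, 0.123 to 0.146 in GFPLow, and 0.139 and 0.126 in WT libraries 1 and 2. S1pr1 made up 85.4% to 88.7% of the summed CPM per kb of the 5 S1P receptor genes in all 8 libraries. That sum was 131, 155 and 142 in GFPhi, 252, 244 and 220.1 in GFPLow, and 76.2 and 130.4 in WT. S1pr4 made up 10.3% to 13.1%. The summed level thus differed between libraries, while the shares of S1pr1 and S1pr4 in it stayed nearly the same. The scarcer receptors held little of the sum, so it does not show whether they kept their proportion. Klf2, per kb, was at 0.193 to 0.264 of S1pr1 in GFPhi, 0.175 to 0.234 in GFPLow and 0.215 in WT library 2, but at 0.884 in WT library 1.

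**Figure D2:**
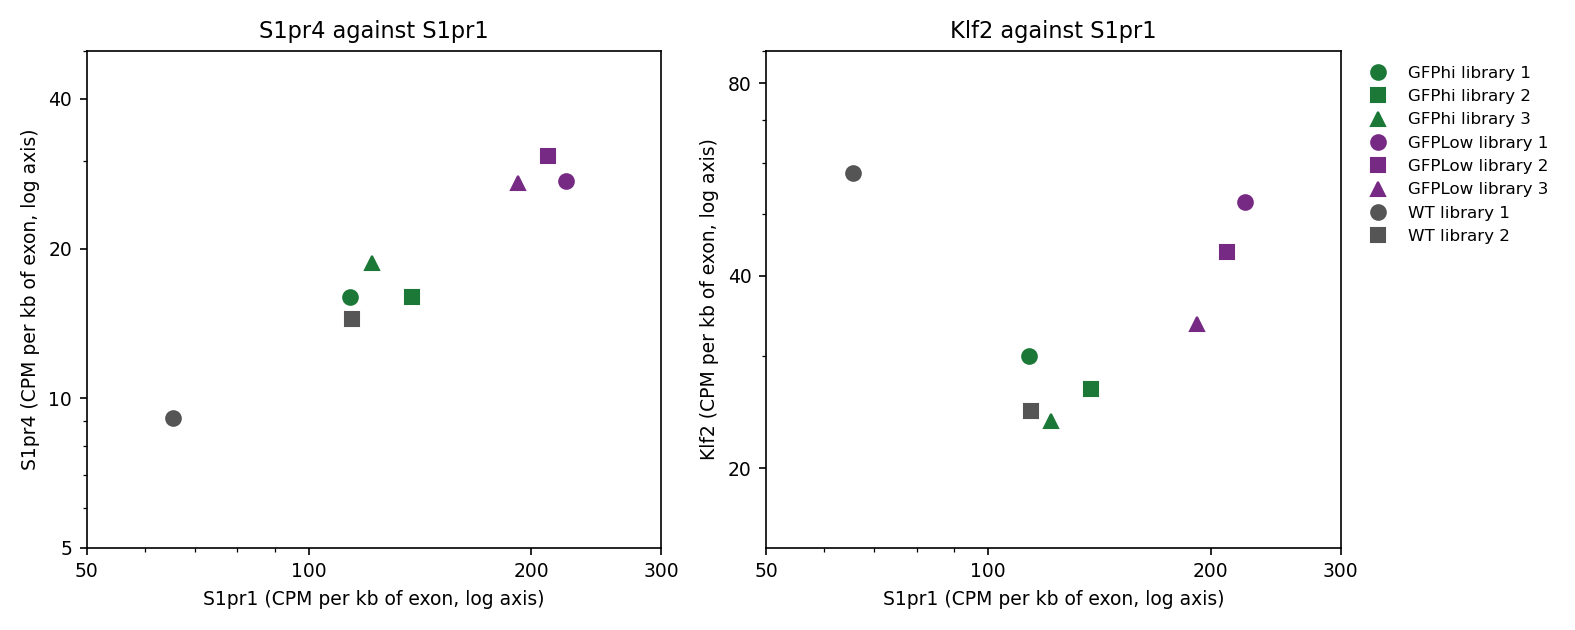
S1pr4 (left) and Klf2 (right) against S1pr1 in the 8 libraries, in CPM per kb of exon on log axes. S1pr4 lies at 0.116 to 0.154 of S1pr1 in all 8 libraries, while for Klf2 WT library 1 lies away from the other 7, at 0.884 of S1pr1.

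Klf2 (ENSMUSG00000055148, chromosome 8, 72319033 to 72321656), the activator of S1pr1, was at 55.4, 49.1 and 43.8 CPM in GFPhi libraries 1 to 3, against 96.3, 80.4 and 62 CPM in GFPLow, while WT library 1 held 107 CPM and WT library 2 held 45.4 CPM. All 3 GFPhi libraries lay below all 3 GFPLow libraries, and the WT libraries were at the top and near the bottom of the whole range. The comparison with WT therefore turned on which WT library was used. GFPhi against WT gave -0.62 ± 0.35 (adjusted p = 0.417), 0.12 ± 0.23 without WT library 1 (adjusted p = 1) and -1.09 ± 0.22 without WT library 2 (adjusted p = 0.00448). GFPLow against WT gave 0.06 ± 0.35 (adjusted p = 0.924), 0.82 ± 0.24 without WT library 1 (adjusted p = 0.105) and -0.40 ± 0.22 without WT library 2 (adjusted p = 0.181). DESeq2 without WT library 1, a test added after seeing the data, gave 0.81 for Klf2 in GFPLow against WT.

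Klf3 (ENSMUSG00000029178, chromosome 5, 64803388 to 64832901) encodes a repressor that recruits the corepressor CtBP. It was at 229.9, 235 and 248 CPM in GFPhi, against 354, 331 and 267 CPM in GFPLow, with 245 and 243 CPM in WT. The WT libraries lay within the GFPhi range, and all GFPLow libraries lay above both groups. Log2 fold changes were 0.38 ± 0.19 in GFPLow against WT (adjusted p = 0.25) and -0.04 ± 0.19 in GFPhi against WT (adjusted p = 0.928), with 0.39 ± 0.15 (adjusted p = 0.197) and -0.03 ± 0.14 (adjusted p = 1) without WT library 1.

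Klf7 (ENSMUSG00000025959, chromosome 1, 64029447 to 64122282), a KLF best known from the development of neurons, was at 25.1, 22.5 and 30.3 CPM in GFPhi, against 43.7, 54.8 and 43.8 CPM in GFPLow, with 27 and 26.2 CPM in WT. GFPLow stood apart from the other 5 libraries, which overlapped. GFPLow against WT gave 0.83 ± 0.21 (adjusted p = 0.082) and 0.86 ± 0.22 without WT library 1 (adjusted p = 0.0645), neither past the threshold. With DESeq2 the same comparison gave 0.83 ± 0.22 (adjusted p = 0.00391). GFPhi against WT gave -0.04 ± 0.21 (adjusted p = 0.939), and -0.02 ± 0.21 without WT library 1 (adjusted p = 1). Exons of the lincRNA gene Gm26649 on the opposite strand overlap 39.3% of Klf7's exon length, and whether counting used strand was not given in the sources used here. Gm26649 had 0 counts in every library.

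Klf13 (ENSMUSG00000052040, chromosome 7, 63886351 to 63938915) encodes a factor first described in human T cells as an activator of the chemokine gene CCL5. Its abundance was 67.7, 65.3 and 79.2 CPM in GFPhi, 112, 114 and 114 CPM in GFPLow, and 59.1 and 66.7 CPM in WT. The GFPLow libraries agreed within a coefficient of variation of 1.14% and lay above all others. Klf13 rose in GFPLow against WT by 0.85 ± 0.17 (adjusted p = 0.0404), a 1.8-fold difference. Without WT library 1 the log2 fold change was 0.77. Upper-quartile scaling (0.69 ± 0.17, adjusted p = 0.0635) and no filter on low counts (0.88 ± 0.24, adjusted p = 0.0735) ended the Klf13 call. The call held in 7 of 19 alternatives. GFPhi against WT gave 0.17 ± 0.17 (adjusted p = 0.609), and 0.08 ± 0.12 without WT library 1 (adjusted p = 0.994).

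Klf6 (ENSMUSG00000000078, chromosome 13, 5861482 to 5870394), a widely expressed activator, was at 160.5, 196 and 209.6 CPM in GFPhi, against 207, 184 and 175 CPM in GFPLow, while WT libraries 1 and 2 held 73.3 and 163 CPM. GFPhi and GFPLow overlapped, and WT library 1 was the lowest by a wide margin. GFPhi against WT gave 0.68 ± 0.32 (adjusted p = 0.378) and 0.21 ± 0.16 without WT library 1 (adjusted p = 0.955). GFPLow against WT gave 0.67 ± 0.32 (adjusted p = 0.234) and 0.22 ± 0.16 without WT library 1 (adjusted p = 0.538), so the size of both differences rested on that library.

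Klf10 (ENSMUSG00000037465, chromosome 15, 38291463 to 38300706), an early gene of TGF-beta signalling that bears on regulatory T cell function in mice, was at 40.7, 27.5 and 35.3 CPM in GFPhi, against 29.6, 27.9 and 34.1 CPM in GFPLow, with 25.5 and 31.2 CPM in WT. The 3 groups overlapped. The log2 fold changes were 0.28 ± 0.23 in GFPhi against WT (adjusted p = 0.529) and 0.11 ± 0.23 in GFPLow against WT (adjusted p = 0.793). Without WT library 1 they were 0.15 ± 0.23 (adjusted p = 0.998) and -0.03 ± 0.23 (adjusted p = 0.986), the last with its sign turned.

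Klf4 (ENSMUSG00000003032, chromosome 4, 55527143 to 55532466), the closest relative of Klf2 among these genes and a factor of quiescence in CD8 T cells, was scarce. It had 43, 0 and 1 counts in GFPhi libraries 1 to 3, 36, 25 and 12 counts in GFPLow, and 0 and 23 counts in WT libraries 1 and 2. A count of 0 allows up to 0.0565 CPM in GFPhi library 2 and up to 0.0973 CPM in WT library 1, limits that cover counting error only. The largest value, 0.806 CPM, was in GFPhi library 1, and in the fit to all 8 libraries no comparison had an SE under 1.77 for this gene, so small differences were not detectable.

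Set side by side, the calls in GFPLow against WT were 2 of the 9 genes, Klf13 and S1pr4, both higher, with 1.08% of all genes tested called higher and 3.30% called either way. GFPLow and WT libraries did not overlap for 6 of the 9, Klf3, Klf6, Klf7, Klf13, S1pr1 and S1pr4, all higher in GFPLow, where 21.1% of all genes tested were higher without overlap. The median log2 fold change of the 9 was 0.83, against 0.02 over all genes tested. Without WT library 1, Klf13, S1pr1 and S1pr4 were called higher (2.50% of genes), and without WT library 2, Klf6, Klf7, Klf13, S1pr1 and S1pr4 (24.9% of genes). DESeq2 called Klf7, Klf13, S1pr1 and S1pr4 higher (6.20% of genes), and without WT library 1 it called Klf2 as well (7.10% of genes). Limma voom called 0 of the 9 (0.0265% of genes higher), as did edgeR on GFPLow and WT alone (0.0965% higher), and TMM replaced by total counts, or leaving out any 1 GFPhi or GFPLow library, ended both calls of the fit to all 8 libraries (adjusted p of S1pr4 from 0.0638 to 0.114 and of Klf13 from 0.0803 to 0.153 with 1 such library left out).

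In GFPhi against WT, edgeR called 0 of the 9 genes and 0 of all genes tested, a share of 0%, with 2588 genes at an unadjusted p under 0.05, none of them among the 9. DESeq2 called 0 of the 9 (0.670% of genes) and limma voom 0 (0%), with 288 genes at an unadjusted p under 0.05. S1pr4 was the 1 gene of the 9 whose libraries did not overlap, higher in GFPhi, where 15.6% of all genes were higher without overlap. The median log2 fold change was 0.28 over the 9 and 0.08 over all genes. Without WT library 1 edgeR again called 0 of the 9 and 0 of all genes (0%), with 1011 genes at an unadjusted p under 0.05. With WT library 1 as the lone WT library, Klf6 (1.39 ± 0.17), S1pr1 (0.95 ± 0.13) and S1pr4 (0.91 ± 0.15) were called higher and Klf2 lower, where 24.1% of all genes were called higher and 16.0% lower.

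GFPhi and GFPLow come from mice of the same genotype and were sorted on GFP and FoxP3. Havcr2 was also higher in every GFPhi library than in any GFPLow library, and its part in the differences below was not tested. In the fit to all 8 libraries the log2 fold changes of GFPhi against GFPLow were -0.87 ± 0.19 for Klf7 (adjusted p = 0.0613), -0.68 ± 0.15 for Klf13 (adjusted p = 0.0708), -0.75 ± 0.20 for S1pr4 (adjusted p = 0.132) and -0.75 ± 0.23 for S1pr1 (adjusted p = 0.198). Klf2 gave -0.69 ± 0.32 (adjusted p = 0.472) and Klf3 -0.42 ± 0.17 (adjusted p = 0.375). That fit called 0 of the 9, against 0.626% of all genes called lower and 2.26% called either way, with 5 of the 9 at an unadjusted p under 0.05. GFPhi and GFPLow libraries did not overlap for these 6 genes, all lower in GFPhi, where 14.0% of all genes were lower without overlap, and the median was -0.69 over the 9 against 0.01 over all genes.

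When the fit held the 6 GFPhi and GFPLow libraries alone, the fold changes stayed and their standard errors were smaller. Klf7 fell in GFPhi against GFPLow by 0.87 ± 0.15 (adjusted p = 0.00796), Klf13 fell by 0.68 ± 0.08 (adjusted p = 0.00226), S1pr1 fell by 0.75 ± 0.09 (adjusted p = 0.00166) and S1pr4 fell by 0.75 ± 0.10 (adjusted p = 0.00273). Klf2 fell by 0.69 ± 0.16 (adjusted p = 0.0335) and Klf3 fell by 0.42 ± 0.10 (adjusted p = 0.0346). These 6 of 9 stood against 5.48% of all genes called lower. Klf6 differed by 0.00 ± 0.11 (adjusted p = 0.997) and Klf10 by 0.18 ± 0.16 (adjusted p = 0.578), and neither was called. The same 6 were called without WT library 1 (4.30% of genes lower), without WT library 2 (4.12%) and by limma voom on all 8 (5.11%), and DESeq2 called Klf7, Klf13, S1pr1 and S1pr4 (2.46%). A lone WT library adds no spread, so the fits without a WT library rest on the same 6 GFPhi and GFPLow libraries. Limma voom gave WT libraries 1 and 2 low quality weights, 0.133 and 0.181, against 1.619 to 2.298 in the others. The calls of these fits are therefore not independent of the fit to the 6 libraries alone. All 6 were also called when libraries 3 of both groups, which hold Xist, were left out along with WT (3.31%). With the library number in the titles as a block, on the 6 GFPhi and GFPLow libraries, Klf3 was not called.

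**Figure D3:**
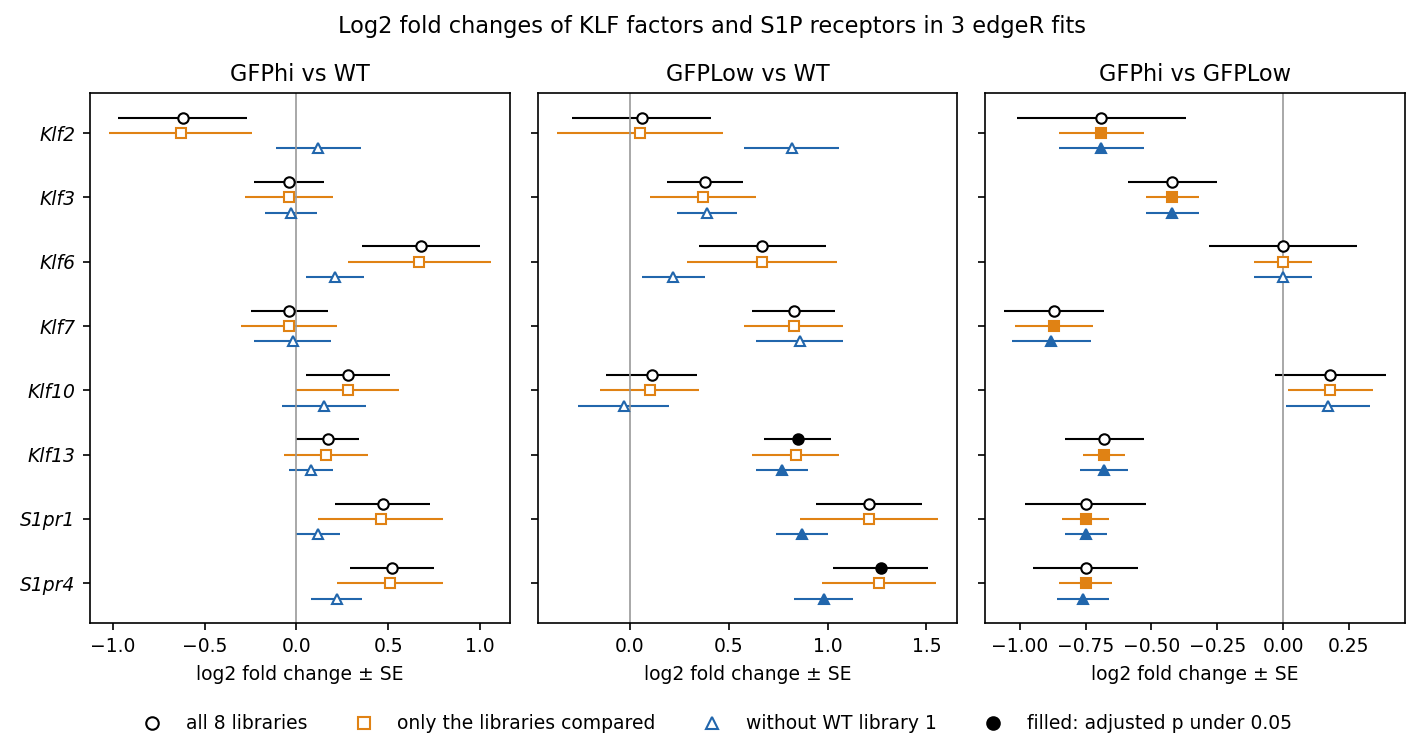
Log2 fold changes of 8 of the 9 genes with their SE in the 3 comparisons, from edgeR on all 8 libraries (circles), on only the libraries compared (squares) and without WT library 1 (triangles), with filled symbols for an adjusted p under 0.05. Klf4, with an SE of 1.77 or more in each comparison of the fit to all 8 libraries, is left out. In GFPhi against GFPLow the 3 fits agree in size for each gene, and Klf2, Klf3, Klf7, Klf13, S1pr1 and S1pr4 are filled in the 2 fits with the smaller SE.

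Levels of different genes are compared per kb of exon, since longer transcripts give more counts. In GFPhi the mean CPM per kb was 124 for S1pr1, 43 for Klf6, 26.8 for Klf2, 21.1 for Klf3, 16.9 for S1pr4, 9.39 for Klf13, 8.26 for Klf10, 3.19 for Klf7 and 0.0902 for Klf4. Only Klf13 and Klf10 were neighbours whose libraries overlapped in that group. In GFPLow the order was S1pr1 at 209, Klf2 at 43.1, Klf6 at 42.9, S1pr4 at 28.4, Klf3 at 28.2, Klf13 at 15, Klf10 at 7.3, Klf7 at 5.84 and Klf4 at 0.154. Klf2 and Klf6 overlapped there, as did S1pr4 and Klf3, and Klf10 and Klf7. In WT it was S1pr1 at 89.9, Klf2 at 41.2, Klf6 at 26.9, Klf3 at 21.7, S1pr4 at 11.8, Klf13 at 8.36, Klf10 at 6.78, Klf7 at 3.27 and Klf4 at 0.065, where Klf6 overlapped with both Klf2 and Klf3.

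Among the 17 KLF genes, Klf2, Klf3 and Klf6 held the largest shares of the counts per kb. Klf6 held 32.7%, 39.9% and 40.2% of the summed CPM per kb of the family in GFPhi, 29.6%, 28.9% and 31.1% in GFPLow, and 14.5% and 35.5% in WT libraries 1 and 2. Klf2 held 26.8%, 23.7% and 20% in GFPhi, 32.8%, 30% and 26.2% in GFPLow, and 50.2% and 23.5% in WT libraries 1 and 2. Klf2 thus led in WT library 1 and, by a few percent or less, in GFPLow libraries 1 and 2, and Klf6 led in the other 5. Klf3 kept a share of 18.3% to 20.7% in all 8 libraries. The sum over the family was 112, 112 and 119 CPM per kb in GFPhi, 159, 145 and 128 in GFPLow, and 115 and 105 in WT.

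**Figure D4:**
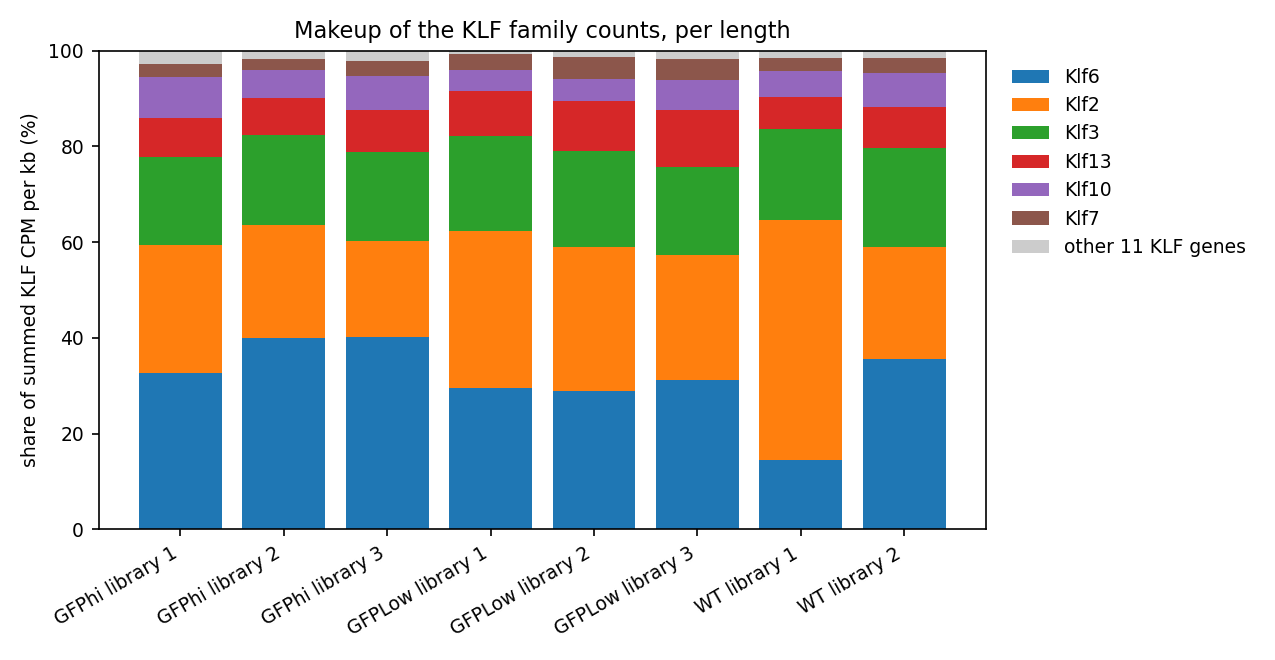
Share of each KLF gene in the summed CPM per kb of the 17 KLF genes, in percent, 1 bar per library. Klf6 and Klf2 are the 2 largest parts in 7 libraries, and in WT library 1 Klf2 holds 50.2%, Klf3 18.9% and Klf6 14.5%.

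Profiles over the 8 libraries were also set against each other by their distance, the root mean square difference of log2 CPM after each gene was centred on its own mean. Among the members other than Klf4 the smallest distances were 0.13 between S1pr1 and S1pr4 and 0.15 between Klf7 and Klf13. The largest was 0.81, between Klf2 and Klf6, and Klf2 lay 0.71 from S1pr1. Among 8118 genes with a mean log2 CPM above 3, the 3 nearest to S1pr1 were Aqr, which encodes an RNA helicase of the spliceosome, at 0.08, Rnf145, which encodes a ubiquitin ligase, at 0.09, and Mettl27 at 0.10. The 3 nearest to Klf2 were Siah1a, which encodes a ubiquitin ligase, at 0.15, Hmgn1, which encodes a nucleosome-binding protein, at 0.16, and N6amt1, which encodes a methyltransferase, at 0.19. The distances describe these 8 libraries, which share their scaling and the gap between the 2 WT libraries. Hmgn1 shows that gap, with 112, 110.2 and 108 CPM in GFPhi, 174, 162 and 148 CPM in GFPLow, and 191 and 101 CPM in WT libraries 1 and 2.

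Promoter windows from RefSeq (GRCm38.p6), the 250 bases before the annotated start, were found for 7 of the 9 genes, with Klf10 and S1pr1 not among them. RefSeq starts differ from the GENCODE bounds given above: the Klf7 window lies wholly inside the GENCODE gene, downstream of its start, and the Klf2 and Klf3 windows reach past the GENCODE start into the gene. The windows of Klf2 (chr8:72318812-72319061, plus strand), Klf3 (chr5:64803271-64803520, plus strand), Klf7 (chr1:64121390-64121639, minus strand), Klf13 (chr7:63938916-63939165, minus strand) and S1pr4 (chr10:81500138-81500387, minus strand) are shown because these genes had lower levels in GFPhi than in GFPLow without overlap and because KLF proteins bind CACCC. Capitals mark CACCC or its complement GGGTG, which were searched on both strands, and in Klf2 also the MEF2 motif.

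Klf2: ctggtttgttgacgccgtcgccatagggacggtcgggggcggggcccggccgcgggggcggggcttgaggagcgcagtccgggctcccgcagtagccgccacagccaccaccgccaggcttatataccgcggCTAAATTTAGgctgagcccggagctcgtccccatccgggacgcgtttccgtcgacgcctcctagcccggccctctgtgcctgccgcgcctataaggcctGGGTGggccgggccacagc
Klf3: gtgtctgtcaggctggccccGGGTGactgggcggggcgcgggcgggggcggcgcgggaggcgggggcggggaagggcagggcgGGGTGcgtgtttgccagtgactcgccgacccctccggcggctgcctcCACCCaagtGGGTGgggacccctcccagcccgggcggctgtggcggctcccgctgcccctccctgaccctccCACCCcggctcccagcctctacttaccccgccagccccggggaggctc
Klf7: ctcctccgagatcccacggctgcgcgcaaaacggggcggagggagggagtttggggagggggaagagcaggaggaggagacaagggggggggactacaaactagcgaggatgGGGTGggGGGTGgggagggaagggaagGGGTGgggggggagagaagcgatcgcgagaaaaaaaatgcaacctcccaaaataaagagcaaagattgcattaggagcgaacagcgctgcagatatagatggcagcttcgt
Klf13: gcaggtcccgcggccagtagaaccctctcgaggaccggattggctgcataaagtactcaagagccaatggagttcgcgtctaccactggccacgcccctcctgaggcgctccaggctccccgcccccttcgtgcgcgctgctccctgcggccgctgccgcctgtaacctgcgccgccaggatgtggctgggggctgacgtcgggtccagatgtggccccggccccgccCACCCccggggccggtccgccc
S1pr4: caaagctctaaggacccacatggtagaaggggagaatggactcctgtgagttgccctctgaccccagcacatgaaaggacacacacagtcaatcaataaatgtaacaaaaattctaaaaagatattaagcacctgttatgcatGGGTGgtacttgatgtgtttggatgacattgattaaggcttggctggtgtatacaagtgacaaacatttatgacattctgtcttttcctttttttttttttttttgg

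CACCC stood once in the Klf2, Klf13 and S1pr4 windows, 3 times in that of Klf7 and 5 times in that of Klf3, and it was not in those of Klf4 and Klf6. Of all 32851 windows of this length, 52.0% hold it at least once, and 5 of the 7 windows here do. The MEF2 motif in the Klf2 window begins 118 bases before the start and is in 0.508% of all windows. As background, MEF2 factors downstream of the kinase ERK5 are known to drive Klf2 in other cells. These matches are descriptions of letters, and binding was not measured.

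Ccr7 was at 581, 679.6 and 500.3 CPM in GFPhi, against 1156, 1125 and 1072 CPM in GFPLow, with 265 and 582 CPM in WT. Its order of groups was that of S1pr1, with every GFPLow library on top and WT library 1 lowest. The log2 fold change was 1.40 ± 0.34 in GFPLow against WT (adjusted p = 0.0722) and 0.95 ± 0.15 without WT library 1 (adjusted p = 0.0117). In GFPhi against GFPLow it was -0.93 ± 0.29 (adjusted p = 0.204), and on the 6 libraries alone -0.93 ± 0.11 (adjusted p = 0.00149).

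Around the 9 genes, 9 lists held 92 genes of the same pathways, of which 91 were in the table and 79 were tested, and Gnai3 was not analysed here. In GFPhi against WT 0 of the 79 were called by edgeR, with 7 at an unadjusted p under 0.05. In GFPLow against WT 3 rose and 3 fell, and in GFPhi against GFPLow 3 rose and 3 fell, where 3.30% and 2.26% of all genes were called. None of the called genes was a KLF, a Specificity protein factor, a KLF corepressor, an upstream factor of Klf2 or another S1P receptor. Of the other KLF genes 5 of 10 were tested, led by Klf11 at 4.37, 1.83 and 1.61 CPM in GFPhi, 1.2, 1.56 and 4.63 CPM in GFPLow, and 4.61 and 1.78 CPM in WT. Klf9, chosen after its values were seen, was at 3.15, 3.12 and 5.39 CPM in GFPhi, 0.355, 0.366 and 0.93 CPM in GFPLow, and 0.844 and 2.07 CPM in WT. It lay the other way round from Klf7 and Klf13, with 2.82 ± 0.61 in GFPhi against GFPLow (adjusted p = 0.063).

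Upstream of Klf2, the most abundant gene was Foxo1, a forkhead factor that activates Klf2 and S1pr1 in T cells, at 143, 145 and 155 CPM in GFPhi, 175, 184 and 164 CPM in GFPLow, and 111 and 167 CPM in WT. It gave -0.24 ± 0.19 in GFPhi against GFPLow (adjusted p = 0.835), and 0 of the 13 genes of its list were called in any of the 3 comparisons. Sp3, a factor that shares GC-rich sites with KLF proteins, gave 0.46 ± 0.20 in GFPLow against WT (adjusted p = 0.207), and the deacetylase gene Hdac1 gave 0.16 ± 0.31 (adjusted p = 0.759), with 0 of 4 and 0 of 6 tested genes of their lists called.

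Of the 3 other S1P receptors, all tested and 0 called, S1pr2 was the most abundant, at 13.7, 13 and 15.9 CPM in GFPhi, 8.63, 14.5 and 5.27 CPM in GFPLow, and 4.83 and 13.6 CPM in WT. S1pr5, chosen after its values were seen, was at 0, 0.0188 and 0 CPM in GFPhi, 1.63, 1.58 and 1.12 CPM in GFPLow, and 2.24 and 0 CPM in WT. Among 13 tested genes that make, break down or move S1P and its precursors, Plpp1, a lipid phosphatase gene, fell in GFPLow against WT by 3.94 ± 0.81 (adjusted p = 0.0415), at 0.112, 1.65 and 1.05 CPM in GFPLow against 17.3 and 11.4 CPM in WT. Without WT library 1 it missed the threshold, at -3.60 ± 0.85 (adjusted p = 0.0514). Cers6, a ceramide synthase gene, fell in GFPhi against GFPLow by 1.72 ± 0.32 (adjusted p = 0.035), at 9.34, 7.98 and 9.34 CPM in GFPhi against 19.6, 38 and 30.5 CPM in GFPLow. Cers2, the most abundant of that list, gave 0.79 ± 0.38 in GFPhi against WT (adjusted p = 0.378).

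Of 10 tested genes of S1P receptor regulation and signalling 0 were called, and the most abundant, the small GTPase gene Rac2, gave 0.08 ± 0.23 in GFPhi against WT (adjusted p = 0.862). Of 15 genes of lymph node entry and homing 0 were called, and the actin regulator gene Coro1a gave 0.82 ± 0.45 in GFPLow against WT (adjusted p = 0.28). The calls lay mostly among 10 genes of activated and resident T cells, 5 in each of the comparisons that involve GFPLow. Rgs1, a brake on Gi-coupled receptors, fell in GFPLow against WT by 4.56 ± 0.47 (adjusted p = 0.00405), while the chemokine receptor genes Cxcr6 (2.92 ± 0.31) and Cxcr3 (1.28 ± 0.21) rose. In GFPhi against GFPLow, Rgs1 rose by 3.57 ± 0.43 (adjusted p = 0.00682), and Cxcr6 fell by 1.69 ± 0.25. Zfp683, which encodes the residency factor Hobit, fell as well, at 0.75, 0.489 and 1.06 CPM in GFPhi against 6.48, 5.73 and 6.24 CPM in GFPLow (adjusted p = 0.0121). The other calls of this list, chosen by no rule but named for the count, were Itgae and Zfp683 in GFPLow against WT (-2.18 ± 0.43 and 2.43 ± 0.50) and Itgae and Klrg1 in GFPhi against GFPLow (2.77 ± 0.41 and 2.65 ± 0.51). Without WT library 1 the calls in GFPLow against WT held for Rgs1 (-3.75 ± 0.33), Cxcr6 (3.09 ± 0.35), Cxcr3 (1.21 ± 0.19), Itgae (-2.59 ± 0.40) and Zfp683 (2.84 ± 0.56).

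Some of these genes are also expressed in other cells, and markers of those were read beside them. S1pr1, Klf2 and Klf4 are high in endothelium, whose marker Cdh5 was at most 0.318 CPM and Kdr at most 0.452 CPM in any library, with Pecam1, which T cells also express, at 35.1 to 164 CPM. Of the 6 endothelial and stromal markers 3 were tested, and Col1a2 fell in GFPLow against WT, at 0 CPM in GFPLow against 4.83 and 0.448 CPM in WT, a call lost without WT library 1 (adjusted p = 0.0517). Of 5 B cell markers 3 were tested, and Cd79b was at 50.1, 44.5 and 43.2 CPM in GFPhi, 3.62, 3.03 and 11.2 CPM in GFPLow, and 70.4 and 50.6 CPM in WT. Cd79b fell in GFPLow against WT by 3.34 ± 0.53 (adjusted p = 0.0161) and rose in GFPhi against GFPLow by 2.95 ± 0.50 (adjusted p = 0.0238), while the B cell markers Ms4a1 and Pax5 were at most at 0.828 and 1.58 CPM in any library. The 6 myeloid markers, all tested, summed to 1.35, 0.414 and 19.6 CPM in GFPhi, 18.5, 1.58 and 224 CPM in GFPLow, and 9.08 and 29.2 CPM in WT, with 0 called. The 5 NK markers summed to 6.56, 4.91 and 2.46 CPM in GFPhi, 24.5, 41.2 and 89 CPM in GFPLow, and 6.23 and 1.84 CPM in WT, and of 4 tested 2 rose in GFPLow against WT, Eomes and Klrk1, which some activated T cells also express, and 2 fell in GFPhi against GFPLow, Klrb1c and Klrk1. Ncr1, the defining NK marker, was at 0, 0 and 7.81 CPM in GFPLow. The 5 regulatory T cell markers, Foxp3, Il2ra, Ctla4, Ikzf2 and Lrrc32, all fell in GFPLow against WT and rose in GFPhi against GFPLow. In GFPhi against WT 0 of these 5 were called. The part of all these markers in the levels of the 9 genes was not tested. The 5 platelet markers summed to 40.8 CPM in WT library 1 against at most 5.3 CPM elsewhere.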

How the data were processed

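RNA of 8 libraries was measured by sequencing, with SMART-Seq HT and Nextera XT kits per the labels' protocols. The authors deposited 1 table of raw counts per Ensembl gene, without normalization. HISAT2 2.1.0, SAMtools 1.9, HTSeq 0.11.2, edgeR, R 4.0 and the build GRCm38 are named in the submitters' processing notes. Their roles, the annotation, filters and strand setting were not given in the sources used here. Symbols, coordinates and union exon lengths came from GENCODE vM21 (GRCm38), which matched 54722 of 54837 identifiers. Counts of reads without molecular identifiers are not independent molecules, so limits from counts cover counting error only.

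Genes were filtered with filterByExpr, libraries were scaled by TMM, and 1 edgeR 4.0.16 quasi-likelihood model (robust, 1 mean per group, 5 residual degrees of freedom) was fitted to all 8 libraries. The 3 comparisons were tested two-sided, with Benjamini-Hochberg adjustment over all genes tested and a threshold of 0.05. An SE is the absolute log2 fold change over the square root of F, and CPM are TMM-scaled. Profile distances used log2 CPM with a prior count of 2. The model was tested on simulated data. DESeq2 1.42.0 and limma 3.58.1 ran under R 4.3.3, and tables were joined with pandas 2.3.3 under Python 3.11.15.

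The named genes are the 9 members, Foxp3, Havcr2 and Ccr7, up to 3 called genes of each context list and comparison by smallest adjusted p or else its most abundant member, and the 3 genes most like Klf2 and S1pr1. Some genes of the lists are not reported here. The members and lists were chosen with earlier results of these data known. Alternatives were other scalings (median-of-ratios, upper quartile, total counts), filters (none, 5 CPM in 2 libraries), DESeq2, limma voom with quality weights, no robust estimation, the title number as a block, only the libraries compared, and each library left out. DESeq2 without WT library 1 and GFPhi and GFPLow libraries 1 and 2 alone were added after seeing the data. With 1 WT library left, it was assumed to vary like the other groups. No 2 libraries of a group agreed within sampling noise (chi-square per degree of freedom 26.7 to 899).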

Additional observations from a re-analysis of the deposited data

How the results depend on the processing

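Genes called in GFPhi against WT were 0, with 1 under no filter, 118 with DESeq2, 93 with DESeq2 without WT library 1, and 0 to 8234 with 1 library left out, where members called ran from 0 to 4. In GFPLow against WT, 623 genes and 2 members were called. These became 325 and 0 with total counts, 3227 and 4 with DESeq2, 72 and 0 with limma voom, 33 and 0 with only the libraries compared, and 2504 and 5 with DESeq2 without WT library 1. With 1 library left out they ran from 213 to 9002 genes and from 0 to 5 members, the highest without WT library 2. In GFPhi against GFPLow, 426 genes and 0 members were called. These became 270 genes with total counts, 1383 and 4 members with DESeq2, 2271 and 6 with limma voom, 2105 and 6 with only the libraries compared, 1440 and 6 with libraries 1 and 2 alone, and 470 and 2 with the filter of 5 CPM, where 147 genes were called lower. With 1 library left out they ran from 105 to 1984 genes and from 0 to 6 members, the 6 only without a WT library.

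The title numbers were used as a block. Deviations of same-numbered GFPhi and GFPLow libraries correlated at 0.067, 0.066 and 0.149, not all above 0.1, so the numbers were not taken as pairs, although each library correlated best with its own number and libraries 3 of both groups alike held Xist and no Ddx3y counts. On all 8 libraries the block also joined WT libraries to GFPhi and GFPLow libraries of the same number, which no label links. With that replicate block, GFPLow against WT gave 158 genes and 0 members, and GFPhi against GFPLow 182 genes and 0 members. The block on GFPhi and GFPLow alone gave 1752 genes and 5 members, without Klf3 (adjusted p = 0.0652).

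Signs turned only for values that passed no threshold in either fit, and the cause was not tested. In GFPhi against WT, Klf2 was 0.12 without WT library 1 by edgeR and by DESeq2, and -1.09 to 0.12 with any 1 library left out. Klf3 was 0.24 with total counts and 0.01 with the block. Klf4 was -1.58 with voom, -0.27 with the block, -4.13 without GFPhi library 1, and -0.53 without WT library 1 by edgeR and by DESeq2, with a range of -4.13 to 6.78 over the libraries left out. Klf7 was 0.25 with total counts and 0.06 without GFPhi library 2 (range -0.16 to 0.06). In GFPLow against WT, Klf2 was -0.14 with upper-quartile scaling, -0.08 with the filter of 5 CPM, -0.10 without GFPLow library 1 and -0.40 without WT library 2 (range -0.40 to 0.82). Klf10 was -0.04 with upper-quartile scaling and -0.03 without WT library 1 by edgeR and by DESeq2 (range -0.03 to 0.28). In GFPhi against GFPLow, Klf6 was 0.00 and lay from -0.13 to 0.11 on both sides of 0, which is not counted as a change of sign, and the other 8 members kept theirs. Of all member values under the alternatives, 421 kept sign and side of the threshold, 58 newly passed it, 22 lost it and 18 changed sign. Against WT, total counts shifted the median of all genes by 0.24 (GFPhi) and 0.26 (GFPLow), and upper-quartile scaling by -0.13 and -0.14. Depth limits Klf4, with 43 counts at most in a library.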
